A study of Mus musculus with 4 samples.

Results

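The CD300 receptor genes of the mouse macrophage line RAW264.7 were described after exposure to 1,5-anhydroglucitol (1,5-AG), a polyol found in blood and food that lacks the hydroxyl group at carbon 1 of glucose. The members are 5 listed genes, found by symbol among 21523 rows of the expression table: the inhibitory receptor genes Cd300a and Cd300lf, and the activating receptor genes Cd300lb, Cd300ld and Cd300c2. They were chosen by the measured fold changes of this same comparison, in that the family was listed with those results known, so their levels and fold changes are given as a description, and the adjusted p-values only place each gene within the fit over all genes. The 1,5-AG group had 2 libraries from cells given 0.5 mM 1,5-AG for 24 h, and the control group had 2 libraries from cells whose treatment is labelled none. All cells were RAW264.7, a macrophage-like line from a virus-induced mouse tumour, kept in DMEM with serum and antibiotics, so every library comes from the same line. The labels give no culture time for the controls and do not say that replicates were separate cultures, so p-values measure the spread between these libraries only. Messenger RNA was sequenced from stranded poly(A)-selected libraries.

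CD300 receptors are cell surface proteins of the immunoglobulin superfamily, carried mainly by myeloid cells, and their extracellular domain binds lipids that are exposed on dying cells, on vesicles and in lipoproteins. Inhibitory members have a long cytoplasmic tail with immunoreceptor tyrosine-based inhibitory motifs (ITIMs), which recruit phosphatases such as SHP-1, the product of Ptpn6. Activating members have a short tail and signal through partner proteins that carry activating motifs (ITAMs), chiefly DAP12 (Tyrobp) and the Fc receptor gamma chain (Fcer1g). In macrophages the family is known for tuning the uptake of apoptotic cells and the response to microbial products.

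In the table, 10 protein-coding CD300 genes lie within a cluster of 244 kb on mouse chromosome 11 (chr11:114890041-115133992, mm10). Cd300a sits at its lower end on the plus strand, at chr11:114890041-114904654, and Cd300lf at its upper end on the minus strand, at chr11:115116214-115133992. Between them, on the minus strand, lie Cd300lb (chr11:114922781-114934386), Cd300ld (chr11:114982274-114989922) and Cd300c2 (chr11:114996721-115001880). The stretches around the transcription start (250 bases before to 50 after, RefSeq, GRCm38.p6, 5′ to 3′ on the strand of the gene) are shown for 4 members, because they set the members with the lowest fold changes, Cd300a and Cd300ld, beside the most abundant one, Cd300lb, and beside Cd300lf, whose groups overlapped. Capitals mark matches on either strand to GAGGAAGT, a strict form of the PU.1 site, or to TATAAA, the TATA box. Only exact matches were searched for, so a window without them can still hold other forms of these sites.
Cd300a (chr11:114889791-114890090, plus strand): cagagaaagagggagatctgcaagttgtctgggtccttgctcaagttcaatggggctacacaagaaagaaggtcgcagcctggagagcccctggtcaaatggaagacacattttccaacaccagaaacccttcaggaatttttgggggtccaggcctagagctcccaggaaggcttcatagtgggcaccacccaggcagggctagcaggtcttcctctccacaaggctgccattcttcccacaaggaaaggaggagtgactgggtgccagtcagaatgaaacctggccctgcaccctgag
Cd300ld (chr11:114989837-114990136, minus strand): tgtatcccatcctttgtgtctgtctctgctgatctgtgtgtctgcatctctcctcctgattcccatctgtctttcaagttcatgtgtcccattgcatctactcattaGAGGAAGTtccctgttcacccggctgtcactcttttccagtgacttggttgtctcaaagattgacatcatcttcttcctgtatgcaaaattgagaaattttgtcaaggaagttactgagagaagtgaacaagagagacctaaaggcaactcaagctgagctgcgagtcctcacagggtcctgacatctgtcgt
Cd300lb (chr11:114934322-114934621, minus strand): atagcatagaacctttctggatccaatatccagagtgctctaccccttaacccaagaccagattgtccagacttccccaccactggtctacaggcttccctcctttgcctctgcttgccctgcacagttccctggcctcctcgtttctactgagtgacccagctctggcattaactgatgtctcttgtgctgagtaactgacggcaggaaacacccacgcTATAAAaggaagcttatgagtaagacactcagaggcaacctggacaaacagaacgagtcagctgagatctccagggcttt
Cd300lf (chr11:115133943-115134242, minus strand): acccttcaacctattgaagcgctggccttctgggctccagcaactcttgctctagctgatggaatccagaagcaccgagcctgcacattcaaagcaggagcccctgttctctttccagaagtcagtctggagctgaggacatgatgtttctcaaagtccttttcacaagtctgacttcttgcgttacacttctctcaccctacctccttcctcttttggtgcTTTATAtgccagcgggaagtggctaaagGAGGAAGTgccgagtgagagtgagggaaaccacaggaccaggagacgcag
Counted from the first base of the transcript as 1, the PU.1 letters began at position -143 in Cd300ld and at 1 in Cd300lf, and were not in the windows of Cd300a, Cd300lb or Cd300c2. They occur in 3.2% of 32851 such windows over all genes. The TATA letters began at -30 in Cd300lb on the strand of the gene and at -28 in Cd300lf on the other strand, and occur in 13.6% of all windows. The AP-1 letters TGANTCA, found in 7.81% of all windows, were in none of the 5 members' windows. The C/EBP letters TTGCNNAA, found in 10.8%, were in the Cd300a window alone of these 5, at -214. No 2 of the motifs overlapped. A match describes letters in this window and not a bound site. The Cd300ld window was 72.4% identical to that of Cd300ld4 over 257 bases aligned without gaps, and the windows of Cd300ld4 and Cd300ld5 were 100% identical.

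Of 8 listed macrophage markers 7 had a mean of at least 1 FPKM over the 4 libraries and were tested. Mrc1 was under 1 FPKM and was not tested. The FPKM scale corresponded to 14616556 and 15112965 fragments in the 1,5-AG libraries and 15163807 and 16228673 in the control libraries. Of the 7 tested macrophage markers 5 were negative, against 50.9% of all tested genes, with a median log2 fold change of -0.11. By limma 0 rose and 1 fell, where 0.647% of tested genes were lower. By voom 3 were lower and 0 higher, where 4.64% were lower. The 1 limma call was Lyz2, the lysozyme gene (log2 fold change -0.56, SE 0.04, adjusted p = 0.0169), which was -0.37 after quantile normalization and missed the threshold without any 1 library (adjusted p 0.0891 to 0.104). The other voom calls were the surface marker gene Adgre1 (adjusted p = 0.00585 with voom, 0.139 with limma) and the growth factor receptor gene Csf1r (0.0205 with voom, 0.169 with limma). The summed level of the list was 3863 to 3958 FPKM with 1,5-AG and 5335 to 5482 FPKM in control, of which Lyz2 made up most; without Lyz2 it was 862 to 863 FPKM with 1,5-AG and 912 to 928 FPKM in control. Spi1, which encodes PU.1 and belongs to that list, had 104 and 95.5 FPKM with 1,5-AG and 120.5 and 103 FPKM in control (log2 fold change -0.16, adjusted p = 0.395; -0.27 to -0.05 with 1 library left out). The part of these macrophage genes in the CD300 values was not tested. The 17 markers of 8 other cell types that were in the table (B, T and NK, mast, dendritic, epithelial, fibroblast, erythroid cells and neutrophils) all had a mean under 1 FPKM, with the neutrophil gene S100a8 the highest at 0.308 FPKM. In bulk RNA, fewer cells that express a gene and less RNA per cell cannot be told apart.

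The members differed widely in level, and their order was the same in each library: Cd300lb, Cd300ld, Cd300a, Cd300c2 and Cd300lf from high to low FPKM, a scale that corrects for gene length. No neighbours in that order overlapped, even across groups. Cd300lb alone made up 58.3% and 58.4% of the summed FPKM of the 5 members in the 1,5-AG libraries, and 52.7% and 50.8% in the control libraries. Cd300lf made up 1.36% and 1.59% with 1,5-AG, and 1.14% and 1.20% in control. Among 11120 tested genes ranked by level, Cd300lb stood at 696 and Cd300lf at 10072.

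**Figure D1:**
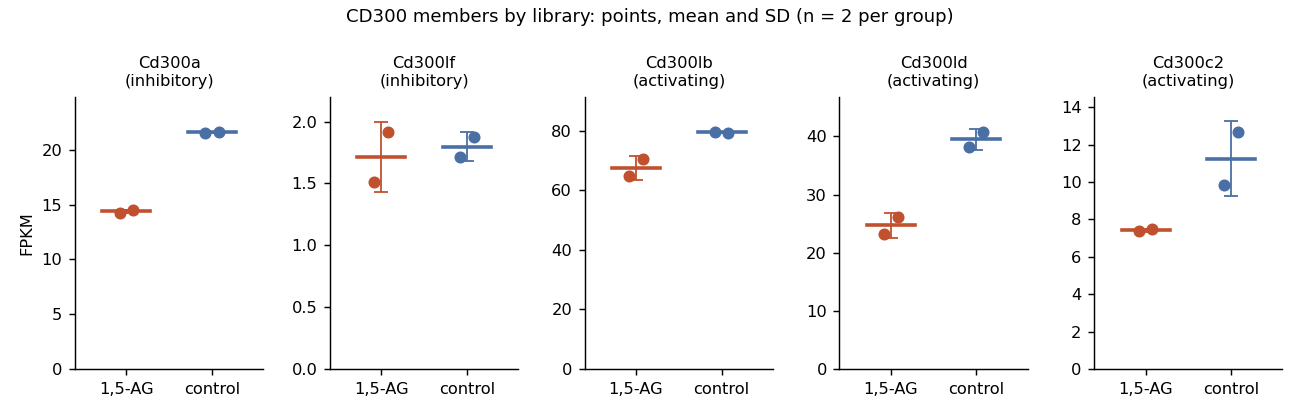
FPKM of each CD300 member in the 2 libraries of the 1,5-AG group (left) and of the control group (right), with the mean (line) and SD (bar); each panel has its own vertical scale starting at 0. Both 1,5-AG points lie below both control points for Cd300a, Cd300lb, Cd300ld and Cd300c2, and the points of Cd300lf overlap.

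Cd300a, the inhibitory receptor that binds phosphatidylserine and phosphatidylethanolamine, had 14.3 and 14.5 FPKM in the 1,5-AG libraries (988 and 1039 fragments) and 21.6 and 21.6 FPKM in the control libraries (1550 and 1663 fragments). Both 1,5-AG libraries lay below both controls, with means of 14.4 ± 0.172 FPKM with 1,5-AG and 21.6 ± 0.0382 FPKM in control (SD, n = 2 each). An SD from 2 libraries is a rough figure, so these SDs do not measure how far apart the groups are. The mean FPKM of Cd300a fell by 33.4% (log2 fold change -0.55, SE 0.04, adjusted p = 0.0209, limma). That adjusted p was 0.105 without 1,5-AG replicate 1, 0.103 without 1,5-AG replicate 2, 0.0909 without control replicate 1 and 0.104 without control replicate 2.

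Cd300lf, the other inhibitory receptor, which binds ceramide and sphingomyelin and can also signal through phosphatidylinositol 3-kinase, had 1.51 and 1.91 FPKM with 1,5-AG (114 and 149 fragments) and 1.72 and 1.88 FPKM in control (134 and 157 fragments). The control values lay inside the range of the 1,5-AG values. The log2 fold change was -0.05 with a 95% interval of -0.36 to 0.27 (adjusted p = 0.887), an interval that holds both no difference and part of the range of the other members. Its sign turned without 1,5-AG replicate 1 (0.06).

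Cd300ld, an activating receptor paired with the Fc receptor gamma chain, had 23.2 and 26.2 FPKM with 1,5-AG (896 and 1048 fragments) and 38.2 and 40.7 FPKM in control (1533 and 1749 fragments). Both 1,5-AG libraries were below both controls, and the means were 24.7 ± 2.15 FPKM with 1,5-AG and 39.5 ± 1.78 FPKM in control (SD, n = 2 each). The mean FPKM of Cd300ld fell by 37.5% (log2 fold change -0.66, SE 0.07, adjusted p = 0.0330, limma). That adjusted p was 0.105 without 1,5-AG replicate 1, 0.0797 without 1,5-AG replicate 2, 0.105 without control replicate 1 and 0.137 without control replicate 2.

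Cd300lb, an activating receptor paired with DAP12 that binds phosphatidylserine and associates with the lipopolysaccharide receptor complex, had 64.7 and 70.4 FPKM with 1,5-AG (2758 and 3103 fragments) and 79.5 and 79.3 FPKM in control (3518 and 3755 fragments). The groups did not overlap. The log2 fold change was -0.23 (95% interval -0.36 to -0.10, adjusted p = 0.112), nearer to 0 than that of the other 3 members whose groups were apart.

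Cd300c2, an activating receptor that pairs with DAP12 and the Fc receptor gamma chain, had 7.35 and 7.47 FPKM with 1,5-AG (137 and 144 fragments) and 9.83 and 12.7 FPKM in control (190 and 262 fragments). The 1,5-AG values were close together and the control values were not, with SDs of 0.0861 FPKM and 2.00 FPKM. Each SD comes from 2 libraries and is rough, and the difference in spread was not tested. The log2 fold change was -0.53 (95% interval -0.83 to -0.23, adjusted p = 0.111), which was -0.70 without control replicate 1 and -0.36 without control replicate 2.

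By the limma test over all genes, 2 of the 5 members fell and 0 rose, where 0.647% of 11120 tested genes were lower and 0.809% higher at an adjusted p of 0.05, 1.46% in all. In 4 of the 5 members both 1,5-AG libraries lay below both controls, which held for 25.4% of tested genes. Since the genes were listed with this contrast known, these counts say nothing about the family beyond the values themselves. With limma's voom on fragments recovered from the FPKM, Cd300lb (adjusted p = 0.00279) and Cd300c2 (adjusted p = 0.0154) also passed, making 4 of 5 members, where 4.64% of 11056 genes were lower and 3.6% higher, 8.24% in all. The same 4 passed when limma was run on protein-coding genes alone, where 2.64% of 9439 genes were lower and 1.73% higher, 4.36% in all.

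**Figure D2:**
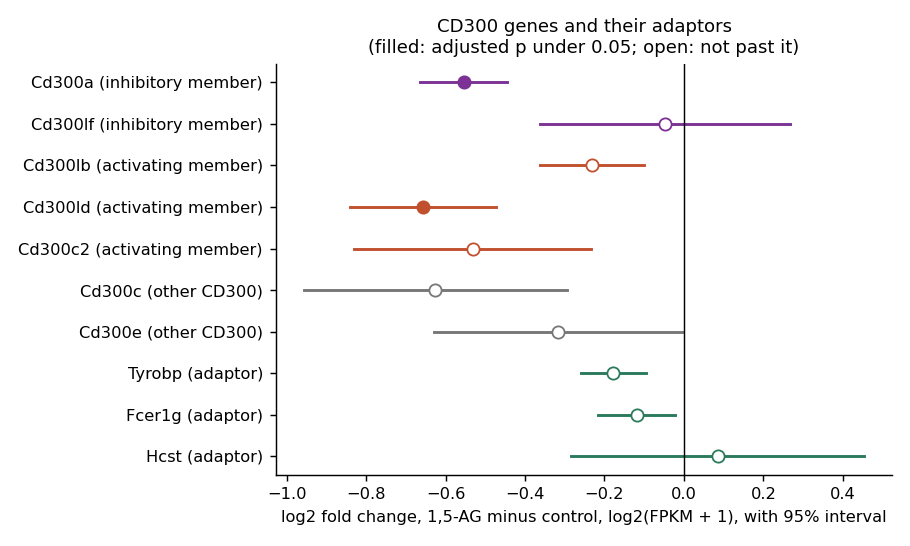
Log2 fold change (1,5-AG minus control, log2(FPKM + 1) scale) with its 95% interval from limma for the 5 members, for the 2 other CD300 genes that were tested and for the 3 signalling adaptors. Cd300a (-0.55) and Cd300ld (-0.66) are filled as past an adjusted p of 0.05, and the interval of Cd300lf spans 0.

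Inhibitory and activating members did not separate by the direction of their fold changes. The summed FPKM of the 2 inhibitory members was 15.8 and 16.4 in the 1,5-AG libraries and 23.3 and 23.5 in the control libraries. That of the 3 activating members was 95.2 and 104 with 1,5-AG and 128 and 133 in control. Each sum was lower in both 1,5-AG libraries than in both controls, to 0.688 of the control mean for the inhibitory and 0.766 for the activating members.

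The activating to inhibitory ratio of summed FPKM was 6.03 and 6.34 with 1,5-AG and 5.48 and 5.65 in control. On that measure the inhibitory side was lower by more, but the sum of the inhibitory side is nearly all Cd300a. Averaged over genes instead, so that Cd300lf counts as much as Cd300a, the mean log2 fold change was -0.30 for the inhibitory and -0.47 for the activating members, a difference of 0.17 in the other direction, where the ratio of sums gives -0.15. Which side was lower by more thus depended on the weight given to Cd300lf.

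Among the activating members, Cd300lb took a larger share of the summed FPKM in the 1,5-AG libraries and Cd300ld a smaller one. The Cd300lb to Cd300ld ratio of FPKM was 2.79 and 2.68 in the 1,5-AG libraries and 2.08 and 1.95 in the control libraries, so the groups did not overlap. The Cd300lb to Cd300a ratio was likewise 4.53 and 4.85 with 1,5-AG and 3.69 and 3.67 in control. The Cd300ld to Cd300a ratio, 1.62 and 1.81 with 1,5-AG and 1.77 and 1.88 in control, overlapped between the groups. These ratios are free of the scaling of a library, and with 2 libraries a group an exact two-sided permutation test cannot go below 0.333, so no test was made.

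**Figure D3:**
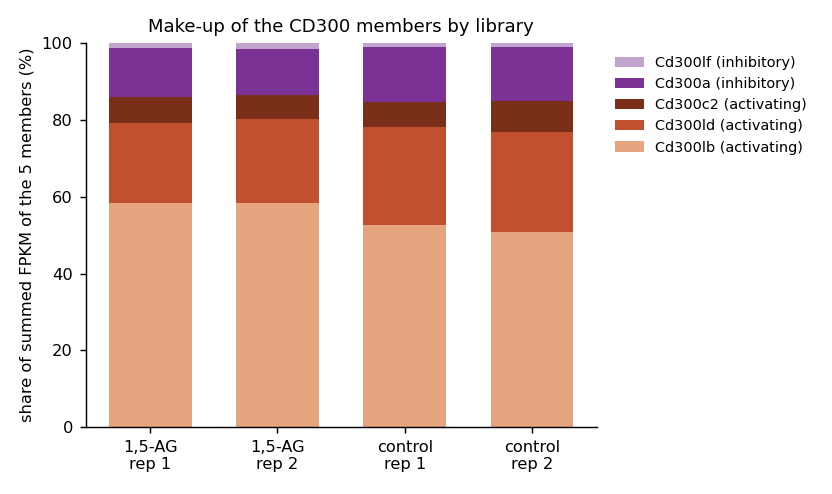
Share of each member in the summed FPKM of the 5 members, as stacked bars, in the 2 1,5-AG libraries (left) and the 2 control libraries (right); reds are activating and purples inhibitory members. The Cd300lb share is 58.3% and 58.4% with 1,5-AG, against 52.7% and 50.8% in control, and the inhibitory share is 14.2% and 13.6%, against 15.4% and 15.0%.

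The other CD300 genes were scarce, and the rule that chose the members did not name them. Cd300c had 1.03 and 1.43 FPKM with 1,5-AG (16 and 23 fragments) and 2.48 and 2.37 FPKM in control (40 and 41 fragments). Its groups were apart, with a log2 fold change of -0.63 (SE 0.13, adjusted p = 0.0997). At this low level its size depended on the pseudocount, and was -0.94 with a pseudocount of 0.1, -0.99 with 0.01 and -0.98 with voom. Cd300c passed among protein-coding genes alone (adjusted p = 0.0199 with limma), where 2.64% of genes were lower, and not with voom (adjusted p = 0.0760). Cd300e, an activating receptor of monocytes in humans, had 1.83 and 1.87 FPKM with 1,5-AG and 2.24 and 2.89 FPKM in control (-0.32, adjusted p = 0.269), and its fold change was -0.19 without control replicate 2 and -0.45 without control replicate 1. So 0 of these 2 tested genes passed by limma over all genes, where 0.647% were lower and 0.809% higher. Both had their 1,5-AG libraries below both controls, as 25.4% of tested genes did. Their unadjusted limma p-values were 0.00463 for Cd300c and 0.0477 for Cd300e.

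A further 4 CD300 genes were under the minimum of 1 FPKM and were not tested. Cd300lg, which lies apart from the cluster at chr11:102041509-102055620, had 13 and 7 fragments with 1,5-AG and 15 and 14 in control. Cd300ld3 had 10 and 3 fragments with 1,5-AG and 5 and 10 in control, and Cd300ld4 had 2 and 2 with 1,5-AG and 5 and 1 in control. Cd300ld5 had 1 and 2 fragments with 1,5-AG and 0 in each control, which allows up to 3 fragments, or 0.232 and 0.217 FPKM, so neither group exceeded that limit. Cd300ld2 was looked for by symbol and had no row in the expression table, so it was not analysed. Cd300ld3, Cd300ld4 and Cd300ld5 are near copies: 93.8% of the stretches of 50 bases in the Cd300ld4 transcript also occur in Cd300ld5, so their counts are uncertain. For the members this share was at most 7.16%, for Cd300c2, mostly with Cd300a, followed by 3.89% for Cd300ld and 3.18% for Cd300a, and was 0 for Cd300lb.

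The fold changes along the chromosome were also read for the genes around the cluster. Within 200 kb on either side, 10 protein-coding genes were in the table and 6 were tested. Of these 0 rose and 0 fell by limma, where 0.809% of tested genes were higher and 0.647% lower. Their median log2 fold change was -0.24, with a range of -0.32 to 0.05, and 5 of the 6 were negative, against 50.9% of all tested genes. The nearest on the upper side was Slc9a3r1, which encodes the scaffold protein NHERF1. It had 21.5 and 18.4 FPKM with 1,5-AG and 25.3 and 25.0 FPKM in control (-0.32, adjusted p = 0.132 with limma). Slc9a3r1 passed with voom (adjusted p = 0.0105) and with limma among protein-coding genes alone (0.0492), and in no other setting. The nearest on the lower side, Gprc5c, was at 0 in both 1,5-AG libraries and 1 control library. Inside the cluster, Cd300lf at the upper end (-0.05) and Cd300ld near the middle (-0.66) bounded the range of the tested members.

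**Figure D4:**
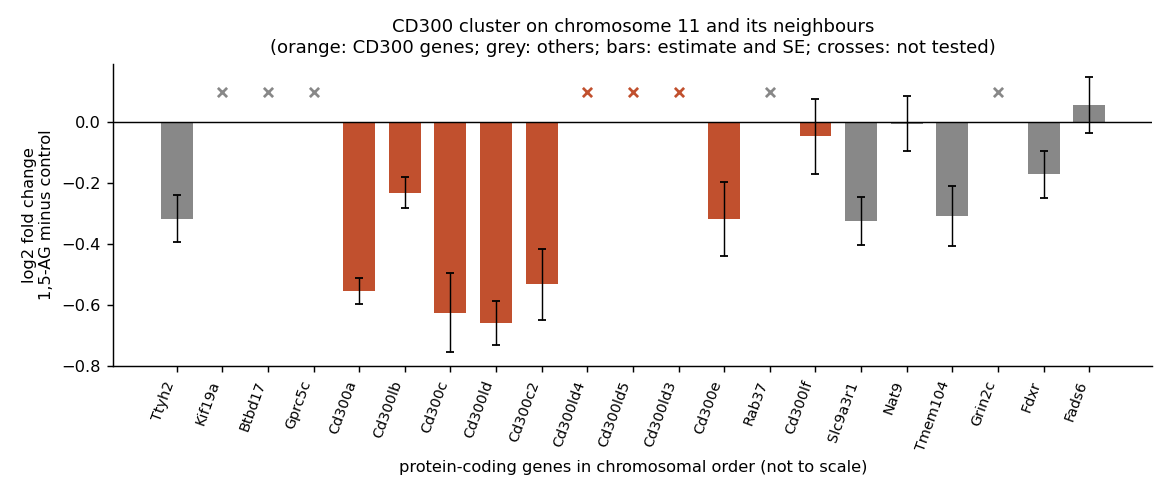
Log2 fold change (1,5-AG minus control) with its SE for protein-coding genes in the CD300 cluster and within 200 kb on either side, in chromosomal order and not to scale; crosses mark genes under the minimum level. The CD300 genes, in orange, run from -0.66 to -0.05, and the 6 tested neighbours, in grey, from -0.32 to 0.05.

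The genes with profiles nearest to the called members were found by the distance between centred log2(FPKM + 1) values over the 4 libraries, among 9438 other protein-coding genes. For Cd300a these were Fnip2, a partner of folliculin (distance 0.0258), Mgst2, a microsomal glutathione transferase (0.0345), and Atf3, a stress-induced transcription factor (0.0479). For Cd300ld they were Tm4sf19, a tetraspan membrane protein gene (0.0593), Il13ra1, a receptor chain for IL-4 and IL-13 (0.0788), and Filip1l (0.0911). The distance between Cd300a and Cd300ld was 0.159, which made Cd300a number 18 in the list for Cd300ld and Cd300ld number 62 in that for Cd300a. With 4 libraries in 2 groups, a small distance mostly says that the fold change is of like size.

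The lipids bound by the family are made and exposed by enzymes and transporters. None of the tested genes on the 2 lists of them passed with limma, where 0.647% of tested genes were lower and 0.809% higher. Of 7 tested genes of phosphatidylserine exposure 0 passed, and the lowest p was that of Ano6, a calcium-activated scramblase, with 8.34 and 8.87 FPKM with 1,5-AG and 10.5 and 10.5 FPKM in control (-0.26, adjusted p = 0.101; 0.00133 with voom). With voom 1 of those 7 was lower, Ano6, and 0 higher, where 4.64% of genes were lower and 3.6% higher. Of 14 tested genes of ceramide and sphingomyelin metabolism 0 passed with limma and 0 with voom, and the median was -0.01. Cers2, a ceramide synthase for very long acyl chains, had 102 and 105 FPKM with 1,5-AG and 98.3 and 96.5 FPKM in control (0.09, adjusted p = 0.303; 0.03 after quantile normalization). At an unadjusted p under 0.05, 9.04% of all tested genes were lower and 9.15% higher.

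A further list held receptors and bridging proteins that bind phosphatidylserine directly or through a bridge. Its tested genes had a median of -0.02. Of these 7 genes 1 rose and 0 fell by limma, where 0.809% of all tested genes were higher and 0.647% lower. By voom 1 was higher and 1 lower, where 3.6% were higher and 4.64% lower. Cd36, a scavenger receptor for oxidised lipids, had 8.29 and 9.44 FPKM with 1,5-AG and 5.33 and 4.91 FPKM in control. Cd36 rose, with both 1,5-AG libraries above both controls (log2 fold change 0.69, SE 0.08, adjusted p = 0.0370), a call that was lost without any 1 of the 4 libraries, with adjusted p 0.105 without 1,5-AG replicate 1, 0.137 without 1,5-AG replicate 2, 0.12 without control replicate 1 and 0.148 without control replicate 2. The gene lower with voom was Havcr2, which encodes the phosphatidylserine receptor TIM-3, with 8.25 and 7.68 FPKM with 1,5-AG and 10.8 and 11.8 FPKM in control (log2 fold change -0.46, adjusted p = 0.0563 with limma, 0.00159 with voom). Of the listed immunoglobulin receptors related to CD300, Trem2 and Trem3 were tested and 0 passed. Trem2, a lipid receptor that signals through DAP12, had 5.82 and 4.86 FPKM with 1,5-AG and 12.2 and 5.63 FPKM in control (-0.57, adjusted p = 0.434), and its controls lay further apart than the group means; its fold change was -0.07 without control replicate 1 and -1.06 without control replicate 2. Trem3, a DAP12 partner on mouse macrophages, had 5.58 and 2.93 FPKM with 1,5-AG and 3.91 and 1.49 FPKM in control, and its groups overlapped (0.54, adjusted p = 0.536; 0.05 to 1.03 with 1 library left out).

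Of the signalling adaptors, Tyrobp and Fcer1g were abundant, with means of 382 and 137 FPKM over the 4 libraries. Hcst was not, with a mean of 5.41 FPKM. With limma 0 of the 3 adaptors passed, where 0.647% of tested genes were lower and 0.809% higher. Tyrobp, which encodes DAP12, had 355 and 361 FPKM with 1,5-AG and 403 and 408 FPKM in control (-0.18, SE 0.03, adjusted p = 0.0812). It passed with voom (adjusted p = 0.00931), where 4.64% of genes were lower. With limma it also passed among protein-coding genes alone (adjusted p = 0.0321), at a minimum of 5 FPKM (0.0481) and with a replicate block (0.0374). It passed in no other setting. Fcer1g, the Fc receptor gamma chain, had 132 and 131 FPKM with 1,5-AG and 139.8 and 146 FPKM in control (-0.12, adjusted p = 0.204; -0.19 after quantile normalization). Hcst, which encodes DAP10, had 6.25 and 4.95 FPKM with 1,5-AG and 4.57 and 5.89 FPKM in control (0.09, adjusted p = 0.807), and its sign turned without 1,5-AG replicate 1 (-0.06) and without control replicate 1 (-0.07). Tyrobp and Fcer1g were lower in both 1,5-AG libraries than in both controls, as 25.4% of tested genes were. They were lower by 0.18 and 0.12 on the log2 scale, beside 0.23 for Cd300lb, 0.53 for Cd300c2 and 0.66 for Cd300ld. The 95% intervals of Tyrobp (-0.26 to -0.10) and Cd300lb (-0.36 to -0.10) overlapped.

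Downstream of the activating side, 0 of 19 tested genes of ITAM signalling passed, where 0.647% of tested genes were lower and 0.809% higher. Of the 19, 17 were negative, against 50.9% of all tested genes. Their median was -0.07, against -0.003 over all tested genes. Plcg2, the phospholipase that acts after the kinase Syk, had 42.2 and 42.7 FPKM with 1,5-AG and 51.9 and 49.7 FPKM in control (-0.25, adjusted p = 0.0694; 0.000784 with voom). With voom 6 of the 19 were lower and 0 higher, where 4.64% of genes were lower.

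The list of ITIM effectors also held adaptors of immunoreceptor signalling in general, such as Dok3. Of its 8 tested genes 1 fell and 0 rose by limma, where 0.647% of tested genes were lower, with a median of -0.01. By voom 2 were lower and 0 higher, where 4.64% were lower: Dok3 (adjusted p = 0.000243) and Inpp5d, the gene of the lipid phosphatase SHIP-1 (log2 fold change -0.15 and adjusted p = 0.194 with limma, 0.0334 with voom). Dok3, an adaptor that dampens immunoreceptor signalling, had 17.8 and 18.9 FPKM with 1,5-AG and 24.9 and 24.8 FPKM in control. Its groups were apart (log2 fold change -0.42, SE 0.05, adjusted p = 0.0352), and the call was lost without any 1 library, with adjusted p 0.15 without 1,5-AG replicate 1, 0.12 without 1,5-AG replicate 2, 0.13 without control replicate 1 and 0.142 without control replicate 2. Of the receptors that CD300 proteins are known to act with, Tlr4, the lipopolysaccharide receptor, had 21.1 and 21.4 FPKM with 1,5-AG and 18.5 and 19.9 FPKM in control (0.14, adjusted p = 0.249; 0.09 without control replicate 1). Its co-receptor Cd14 had 548 and 518 FPKM with 1,5-AG and 536 and 501 FPKM in control (0.04, adjusted p = 0.733), with the sign turning under quantile normalization. Il4ra, the IL-4 receptor chain that Cd300lf associates with in mice, was under 1 FPKM, at 0.422 and 0.375 with 1,5-AG and 0.363 and 0.349 in control, and was not tested.

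**Figure D5:**
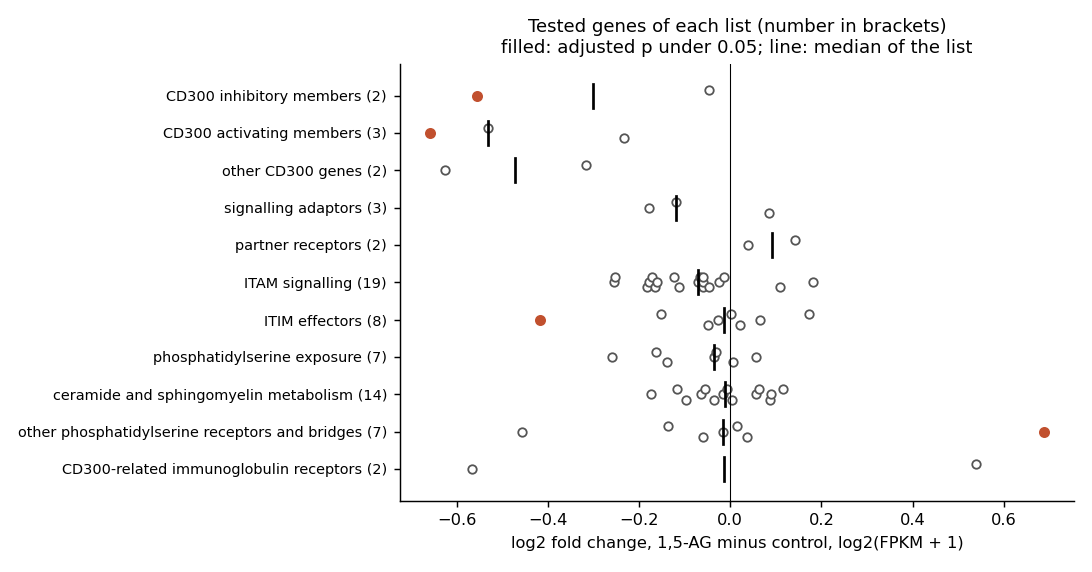
Log2 fold change (1,5-AG minus control) of every tested gene in each list, 1 point a gene, with the median of the list as a line; filled points passed an adjusted p of 0.05. Beside Cd300a and Cd300ld, the filled points are Dok3 (-0.42) in the ITIM effector list and Cd36 (0.69) in that of phosphatidylserine receptors and bridges.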

How the data were processed

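Messenger RNA of 4 RAW264.7 libraries was measured. The authors deposited FPKM (fragments per kilobase of exon, scaled to the library total), 1 column per library, for 21523 Ensembl genes. The submitters' processing notes name build mm10 and the tools HTSeq, Cufflinks, HISAT2 and Trimmomatic; their versions, the annotation and the strand setting are not given there. Symbols, coordinates and exon lengths came from GENCODE M21 (21508 rows matched). Multiplied by exon length, 99.4% of matched rows were whole multiples of 1 fragment in all 4 libraries, within 0.02 fragments, which gave fragment numbers and the depth. Floors of 3 fragments cover counting error only. FPKM is a share of its library, so abundant genes shift all others.

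The 11120 genes with a mean of at least 1 FPKM entered the limma test (version 3.58.1, R 4.3.3), run on log2(FPKM + 1) with a model of group alone and a trended prior variance, two-sided, with Benjamini-Hochberg adjustment over all tested genes at 0.05. Of rows sharing a symbol the highest was kept (8 left out). Fold changes are 1,5-AG minus control on that scale, which understates changes of low genes. Alternatives were voom on the recovered fragments, other scalings, filters, pseudocounts and variance models, protein-coding genes alone, a replicate block and leaving out each library. The fits were tested on simulated data. Members, lists and tests were chosen with earlier results of these data known. Genes named are the 5 members, the other CD300 genes, the adaptors and the partner receptors. Also named are up to 4 called members of each other pathway list, or its lowest p, and called and nearest neighbours of the cluster. The 3 nearest profiles of each called member are named as well. Lyz2, Adgre1, Csf1r, Spi1, Mrc1, S100a8, Trem3, Havcr2, Inpp5d and the pseudogene Gm11699 were added after their values were seen.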

Additional observations from a re-analysis of the deposited data

How the results depend on the processing

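With limma on log2(FPKM + 1), the calls of Cd300a and Cd300ld needed all 4 libraries, the variance trend and the filter on low genes. Both also passed with voom, which was run on all 4 libraries only. Members past the threshold numbered 2, and likewise 2 under both scalings, both other pseudocounts, robust variance and a minimum of 5 FPKM. The number was 0 with all low genes kept, 0 with no variance trend, 0 whichever library was left out, 4 among protein-coding genes and 4 with voom. Fold changes lay between -0.59 and -0.54 for Cd300a and between -0.74 and -0.57 for Cd300ld over 15 alternatives each. Over all genes, the 162 calls became 360 at a minimum of 5 FPKM, 5 with no variance trend, 412 among protein-coding genes, 911 with voom (398 higher and 513 lower, against 90 higher and 72 lower), and 2 to 10 when 1 library was left out, where the lone library is assumed to vary like the other group. With all low genes kept, limma called 0 genes, with 1368 lower and 1260 higher at an unadjusted p under 0.05. Inhibitory minus activating mean log2 fold change, 0.17, was 0.13 to 0.22 over the leave-one-out settings and -0.153 as a ratio of summed FPKM. Signs turned for 4 genes that did not pass: Cd300lf (-0.153 to 0.0598 with 1 library left out), Hcst (-0.0686 to 0.239, and -0.0580 without 1,5-AG replicate 1), Gm11699 (-0.527 to 0.0148) and Cd14 (-0.00816 to 0.0873, -0.000693 without 1,5-AG replicate 1, and -0.0377 under quantile normalization). Over the alternatives run for 33 tested genes named in the text, 396 values stayed on their side of the threshold, 60 dropped below it, 25 came past it and 7 turned sign. Replicate numbers are only names here: deviations of libraries with the same number had a correlation of 0.0124, and the replicate block gave 310 genes and 2 members. Why the settings differ was not tested. Low fragment numbers limit Cd300c and the Cd300ld copies.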

Other observations

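Gm11699, a processed pseudogene, lies within the span of Cd300lb on the opposite strand and shares 0 exon bases with it. It was looked at after its values were seen, because it is the other gene in the cluster, beside the CD300 genes, above 1 FPKM. It had 7.17 and 10.9 FPKM in the 1,5-AG libraries and 10.2 and 11.4 FPKM in the control libraries, so its groups overlapped (log2 fold change -0.26, adjusted p = 0.527). Rab37, a small GTPase gene that overlaps Cd300lf on the opposite strand with 0 shared exon bases, was at 0.0513 and 0 FPKM with 1,5-AG and at 0 FPKM in both controls.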
